A study of Mus musculus with 6 samples.

Results

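The integrated stress response and the unfolded protein response were followed through 10 genes, Hspa5, Hyou1, Herpud1, Xbp1, Atf4, Ddit3, Trib3, Chac1, Asns and Sesn2, out of 32719 genes counted in mouse vagal ganglia. The genes were chosen by symbol. All 10 symbols were present, in 11 rows, because Ddit3 has a pair of gene models with separate identifiers, and all 10 genes passed the filter on low counts. The tissue was the jugular-nodose ganglia, where sensory neurons of the vagus nerve have their cell bodies. Libraries came from wild-type male C57BL/6J mice that had worn osmotic pumps for 2 weeks. By title, 3 libraries were controls and 3 were treated, and the protocol names PBS alone for one arm and PBS with 10 nmol S961 each week for the other, S961 being a peptide that blocks the insulin receptor. Every library carries S961 as its treatment label, so the assignment of PBS to the controls rests on title and protocol. Nothing says that replicates were separate animals, so all p-values measure the spread between these samples, which may be technical.

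When unfolded proteins build up in the endoplasmic reticulum (ER), the sensors IRE1, PERK and ATF6 are released from the chaperone BiP, the product of Hspa5. IRE1 splices the Xbp1 transcript, and spliced XBP1 together with cleaved ATF6 drives chaperone and degradation genes. PERK is also one of several kinases that phosphorylate the translation factor eIF2α, which lowers general protein synthesis but lets ATF4 protein be made, and ATF4 then drives Ddit3 (which encodes CHOP), Trib3, Chac1, Asns and Sesn2. Sensory neurons make large amounts of membrane and secreted protein, and both responses are commonly read from the transcripts of such target genes. Gene counts report the targets only: they show neither Xbp1 splicing nor eIF2α phosphorylation nor ATF4 protein.

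The regulatory sequences that tie these genes to the pathways are short elements near the start of transcription. RefSeq promoter windows (GRCm38.p6, 250 bases before to 50 after the start) were found for 9 of the 10 genes, the exception being Hyou1, and 5 motifs were searched on both strands: the ER stress element ERSE (CCAAT and CCACG with a spacer of fixed length), ERSE-II (ATTGG and CCACG, 1 base apart), the unfolded protein response element UPRE (TGACGTG), the C/EBP-ATF composite site bound by ATF4 (CARE, TGATGNAAN) and the CCAAT box (CCAAT), which lies within ERSE and, on the opposite strand, within ERSE-II. The elements of the ER arm are shown first, written along the gene's strand with the fixed letters of the motif in capitals.
Hspa5 ERSE, chr2:34772015-34772053, plus strand: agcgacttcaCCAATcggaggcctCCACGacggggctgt
Hspa5 UPRE, chr2:34771923-34771949, plus strand: ggcgtagcaaTGACGTGagttgcggag
Herpud1 ERSE-II, chr8:94386367-94386397, plus strand: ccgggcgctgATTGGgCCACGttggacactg

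The CARE matches are shown in the same way for the 4 listed genes that have them, and for Atf3 and Slc7a11 (which has 2), the ATF4-linked genes outside the 10 that are described below. Where CATCA is in capitals the motif lies on the strand opposite to the gene.
Herpud1 CARE, chr8:94386306-94386334, plus strand: accacggcgggTTgCATCAgcccgcaccc
Trib3 CARE, chr2:152344029-152344057, minus strand: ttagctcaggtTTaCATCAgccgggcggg
Asns CARE, chr6:7693214-7693242, minus strand: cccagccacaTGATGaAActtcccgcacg
Chac1 CARE, chr2:119351038-119351066, plus strand: cttccctgccgTTgCATCActcctgccag
Atf3 CARE, chr1:191183426-191183454, minus strand: ccttctcgcacTTgCATCAccaagtccgc
Slc7a11 CARE, chr3:50443661-50443689, minus strand: ctcatgtggcTGATGcAAacctggagaat
Slc7a11 second CARE, chr3:50443643-50443671, minus strand: acctggagaatTTgCATCAtcatgcagcc
Among all 32851 windows, ERSE was present in 0.119%, ERSE-II in 0.0365%, UPRE in 2.01%, CARE in 3.95% and the CCAAT box in 37.4%. Of the 9 genes with a window, 1 held ERSE, 1 ERSE-II, 1 UPRE, 4 CARE and 6 a CCAAT box, and Herpud1 was the gene that held both an ERSE-II and a CARE. The Hspa5 ERSE spans bases -65 to -47 from the RefSeq start and the Asns CARE bases -23 to -15. The GENCODE gene models used for the coordinates below start further upstream for these genes, so both matches lie inside those models. The Trib3 match is at bases 14 to 22 after the RefSeq start. That start lies upstream of the start of the GENCODE model of Trib3, so the match precedes that model. A match describes the letters in these windows and is not evidence of binding.

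The 6 libraries held 12898607 to 33522486 gene counts, which are whole exonic reads per gene. Treated replicate 3 was the smallest and stood apart: across 12197 genes its correlation with the others was at most 0.944, whereas every other library reached at least 0.987 with its nearest neighbour, and genes are not independent replicates. Sensory neuron markers summed to 3588 to 3822 depth-scaled counts (CPM) in controls and 3216 to 4161 CPM in treated libraries, and none of these 10 markers was at 0 in every library. Source and tissue labels read spinal cord, but markers of spinal cord cells summed to 19.1 to 22.9 CPM. Most of it was Aqp4 and Slc1a2, which glia of ganglia also express. The oligodendrocyte gene Mog had 0 counts in 5 of 6 libraries (2 counts in treated replicate 1). Opalin of the same list had 5 counts in treated replicate 1, 16 in treated replicate 3 and 0 in the other libraries. In treated replicate 3 fat cell markers summed to 540.3 CPM against 2.81 to 39.7 in controls, macrophage markers to 268 CPM against 34.8 to 79.6, and fibroblast markers to 2145 CPM against 658 to 1139. Neutrophil markers summed to 46.6 CPM in treated replicate 3 against 0.962 to 12.7 CPM in controls. Fat cell markers also exceeded all controls in treated replicate 2, at 59.5 CPM. Myelinating Schwann cell markers summed to 1264, 1926 and 2014 CPM in treated replicates 1, 2 and 3 against 1024 to 1641 CPM in controls. Markers of sympathetic neurons and glomus cells were lower in every treated library, at 88.9, 93.8 and 59.3 CPM against 138, 124 and 128 CPM in controls, and among them Dbh, a noradrenaline synthesis enzyme, had 10.5, 5.36 and 1.19 CPM against 26.3, 16.7 and 21.5 CPM. The part of these cells in the differences between the groups was not tested. For bulk tissue, fewer cells of a type and less RNA per cell cannot be told apart.

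In control ganglia the 10 transcripts spanned a wide range of levels, which are compared here as CPM per kilobase of exon. Atf4 was the highest at 62.4 ± 2.47 (SD, n = 3), followed by Hspa5 at 49.6 ± 2.40, Asns at 26.7 ± 3.31 and Ddit3 at 16.7 ± 1.19, and the control values of these 4 genes did not overlap. Hyou1 at 14.6 ± 0.614, Herpud1 at 13.6 ± 0.590 and Xbp1 at 13.4 ± 0.436 overlapped from one neighbour to the next, so their order is not resolved. The pathway's 3 least abundant members were Chac1 at 1.89 ± 0.166, Sesn2 at 1.58 ± 0.231 and Trib3 at 1.13 ± 0.375 CPM per kilobase, again with overlapping libraries. By means, the order of the first 4 was the same in treated ganglia, with Atf4 at 62.2 ± 6.89 and Hspa5 at 53.3 ± 2.23. The libraries overlapped there, so that order is not resolved. In treated replicate 3 Hspa5 at 55.9 exceeded Atf4 at 55.2, and Xbp1 at 17.7 and Herpud1 at 17.4 exceeded Ddit3 at 15.6.

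Treated and control ganglia are compared to ask how the ganglia differ after S961 infusion. Across the 10 genes the levels were close between the groups: 8 of 10 log2 fold changes (treated over control) were within 0.2 of 0 in either direction, and the exceptions were Trib3 at 0.32 ± 0.38 (SE) and Chac1 at 0.62 ± 0.27. None of the 10 passed the edgeR quasi-likelihood test at an adjusted p of 0.05, where 0 of all 16019 genes tested (0%) passed, and their adjusted p ran from 0.737 to 0.994. At an unadjusted edgeR p under 0.05 the count was 0 of 10, against 6.67% of all genes. Without treated replicate 1 it was 2 of 10, where 1729 of all 16027 genes tested were under 0.05. The DESeq2 Wald test called 0 of 10, against 0.569% of the genes for which it gave an adjusted p. Its unadjusted p was under 0.05 for 0 of 10, against 5.37% of genes. Treated libraries were all higher than every control for Hspa5, Herpud1 and Chac1, 3 of 10 genes against 7.07% of all genes, and below them for 0 of 10 against 7.63%. The median log2 fold change was 0.09 over the 10 genes and 0.02 over all genes tested.

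**Figure D1:**
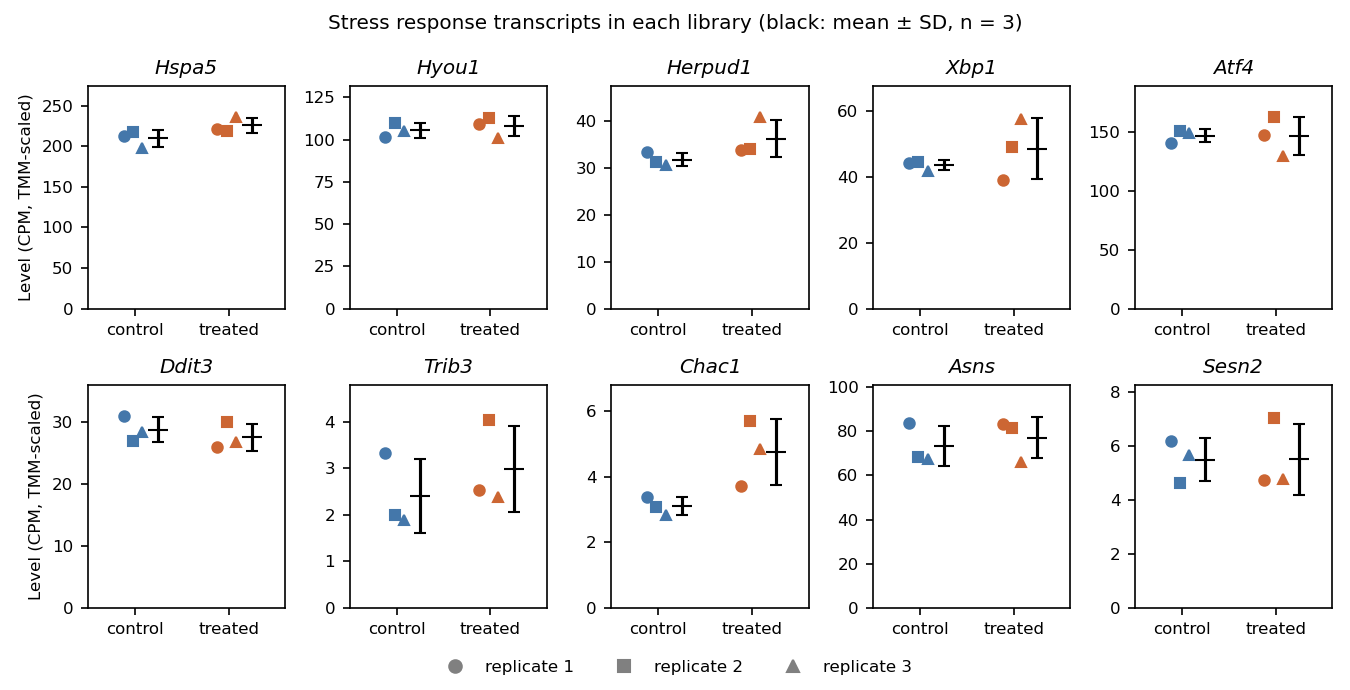
Level of each of the 10 transcripts by library, in TMM-scaled CPM on axes that start at 0. Points are libraries (circle, square and triangle for replicates 1, 2 and 3), and black bars give the mean ± SD of 3 libraries. The groups separate for Hspa5, Herpud1 and Chac1 and overlap for the other genes.

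Within the ER arm, Hspa5 (chromosome 2, 34771970 to 34777547, plus strand, GRCm38), which encodes the chaperone BiP, was the most abundant transcript. Its level was 213, 218 and 198 CPM in control replicates 1, 2 and 3 and 221, 219 and 236 CPM in treated replicates 1, 2 and 3. The lowest treated library still exceeded the highest control, though by as little as 219 against 218 CPM. The log2 fold change was 0.11 ± 0.09 (edgeR adjusted p = 0.785, exact permutation p = 0.1, the smallest that 3 against 3 can give), a 1.08-fold difference with a 95% interval of 0.936 to 1.24-fold. Hyou1 (chromosome 9, 44379490 to 44392369), a large ER chaperone of the HSP70 family and exchange factor for BiP, had 101, 110.1 and 105 CPM in controls and 109, 113 and 101 CPM in treated libraries. These values were intermixed, and the log2 fold change of 0.03 ± 0.08 became -0.01 without treated replicate 2.

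Herpud1 (chromosome 8, 94386438 to 94395377) encodes a membrane protein of the ER-associated degradation machinery and is a classical target of ERSE-II. It had 33.2, 31.2 and 30.6 CPM in controls and 33.7, 33.96 and 40.6 CPM in treated libraries. Treated replicate 3 was well above the rest, while treated replicates 1 and 2 barely exceeded control replicate 1. The log2 fold change of 0.19 ± 0.11 (edgeR adjusted p = 0.745) was 0.10 without treated replicate 3. Xbp1 (chromosome 11, 5520659 to 5525893), the transcription factor whose transcript IRE1 splices, had 44.3, 44.3 and 41.8 CPM in controls and 38.9, 48.9 and 57.4 CPM in treated libraries. The treated libraries of Xbp1 thus bracketed the controls, with the lowest value in treated replicate 1 and the highest in treated replicate 3. Its log2 fold change of 0.15 ± 0.14 was 0.01 when treated replicate 3 was left out and 0.28 when treated replicate 1 was.

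Treated replicate 3, which held the highest Hspa5, Herpud1 and Xbp1, was also the library with the high fat cell, macrophage and fibroblast marker sums given above, and the part of those cells in these values was not tested. Plasma cells are known for high Xbp1. Of 8 listed markers of these cells, 5 were among the genes counted. They summed to 0.688 to 1.22 CPM in controls and 0.803 to 1.27 CPM in treated libraries. The listed immunoglobulin genes Igkc, Ighm and Igha were not among the genes counted, so the sums leave them out. The part of plasma cells was not tested. Averaged over the 4 ER arm genes, the log2 deviation from the control mean was 0.02, 0.03 and -0.05 in controls and 0.02, 0.11 and 0.22 in treated libraries. Treated replicate 1 was therefore inside the control range and treated replicates 2 and 3 above it.

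Within the eIF2α arm, Atf4 itself (chromosome 15, 80255184 to 80257541), the transcription factor at its centre, had 141, 151 and 149.7 CPM in controls and 147, 163 and 130.2 CPM in treated libraries. The highest and the lowest of the 6 values were both treated libraries, and the log2 fold change was -0.0036 ± 0.10 with a 95% interval of 0.844 to 1.18-fold. Ddit3 (chromosome 10, 127290774 to 127296288), the CHOP transcription factor that promotes cell death under prolonged stress, had 30.9, 26.9 and 28.2 CPM in controls and 25.9, 29.9 and 26.6 CPM in treated libraries. Its values were intermixed as well, with a log2 fold change of -0.06 ± 0.11 and an interval of 0.802 to 1.14-fold (edgeR adjusted p = 0.907). Exons of Ddit3 overlap exons of Mars and Gm4189 on the opposite strand, and because the strand setting of the counting is not given in the sources used here, reads of these genes may not be told apart.

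The second Ddit3 row (ENSMUSG00000116429) is a gene model of 105 exonic bases, from 127290829 to 127293753, and all 105 are shared with exons of the main model. It had 13, 15 and 11 counts in controls and 27, 17 and 2 in treated libraries, and how the counting divided reads between the models is not given in the sources used here. Its log2 fold change of -0.32 ± 0.62 had a wide interval of 0.294 to 2.18-fold and was 0.04 without treated replicate 3. With both rows summed, Ddit3 was at -0.07.

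Trib3 (chromosome 2, 152337422 to 152344032) encodes a pseudokinase that binds AKT and feeds back on ATF4. It had 3.32, 2.00 and 1.89 CPM in controls and 2.53, 4.04 and 2.39 CPM in treated libraries, so control replicate 1 lay above treated replicates 1 and 3. The log2 fold change of 0.32 ± 0.38 (edgeR adjusted p = 0.849) was 0.02 when treated replicate 2 was left out and 0.62 when control replicate 1 was. Asns (chromosome 6, 7675169 to 7693254), asparagine synthetase, had 83.5, 68.3 and 67.4 CPM in controls and 83.5, 81.5 and 66.3 CPM in treated libraries. Control replicate 1 was level with treated replicate 1 here, and the log2 fold change of 0.08 ± 0.13 was 0.0077 with treated replicate 1 left out and 0.18 with control replicate 1 left out. Sesn2 (chromosome 4, 132492032 to 132510501), a leucine sensor that restrains mTORC1, had 6.19, 4.62 and 5.68 CPM in controls and 4.73, 7.04 and 4.77 CPM in treated libraries. Its log2 fold change of 0.01 ± 0.25 was -0.22 without treated replicate 2.

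Chac1 (chromosome 2, 119351229 to 119354381), an enzyme that degrades glutathione and a late target of ATF4 and CHOP, showed the largest difference of the 10 genes. It had 3.38, 3.08 and 2.84 CPM in controls and 3.72, 5.71 and 4.85 CPM in treated libraries, from 42 to 164 counts per library. Every treated library exceeded every control, treated replicate 1 only narrowly. The mean went from 3.10 ± 0.273 to 4.76 ± 1.00 CPM (SD, n = 3), and the log2 fold change of 0.62 ± 0.27 was a 1.53-fold difference with an interval of 0.995 to 2.36-fold. This did not pass (edgeR unadjusted p = 0.0521, adjusted p = 0.737, DESeq2 adjusted p = 0.650, exact permutation p = 0.1), and leaving out single libraries moved the value between 0.45, with treated replicate 2 left out, and 0.76, with treated replicate 1 left out.

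**Figure D2:**
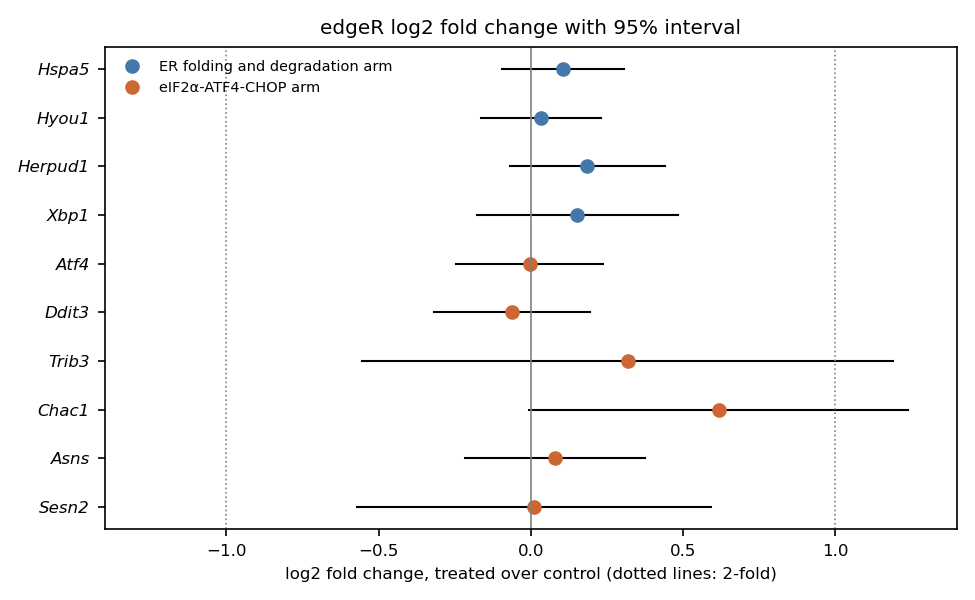
The log2 fold change of treated over control for each gene (points, edgeR) with its 95% interval (lines); dotted lines mark a 2-fold difference in either direction. The intervals of all genes include 0, the lower end for Chac1 being -0.0072, and those of Trib3 and Chac1 extend past 2-fold.

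How firmly these values bound a change differed with abundance. The 95% intervals of 7 genes, Hspa5, Hyou1, Herpud1, Xbp1, Atf4, Ddit3 and Asns, lay wholly within a 1.5-fold difference in either direction, and that of Sesn2, at 0.673 to 1.51-fold, within 2-fold. Those of Trib3, at 0.681 to 2.28-fold, and Chac1 reached beyond 2-fold, so a 2-fold difference in these scarce transcripts was not excluded at this depth. The intervals are single-gene intervals, not adjusted for the number of genes, and a p above the threshold does not show equal levels.

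The 2 arms had their highest library in different places. Relative to the control mean, the average log2 level of the 6 genes of the eIF2α arm was 0.17, -0.10 and -0.08 in controls and 0.04, 0.40 and 0.01 in treated libraries. Treated replicate 2 was thus the highest and control replicate 1 the second highest, above the other treated libraries. Treated replicate 2 held the highest Atf4, Trib3, Chac1 and Sesn2 of all 6 libraries, while Asns and Ddit3 were highest in control replicate 1. In treated replicate 3, where the ER arm averaged 0.22, Atf4, Asns, Sesn2 and Ddit3 were all below their control means. Chac1 at 0.64 and Trib3 at 0.03 were above theirs in that library, and Hyou1 of the ER arm was below, at -0.06. The median log2 fold change of the eIF2α arm was 0.04, which was -0.04 without treated replicate 2 and 0.14 without either control replicate 1 or treated replicate 3, and that of the ER arm was 0.13, which was 0.07 without treated replicate 3.

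**Figure D3:**
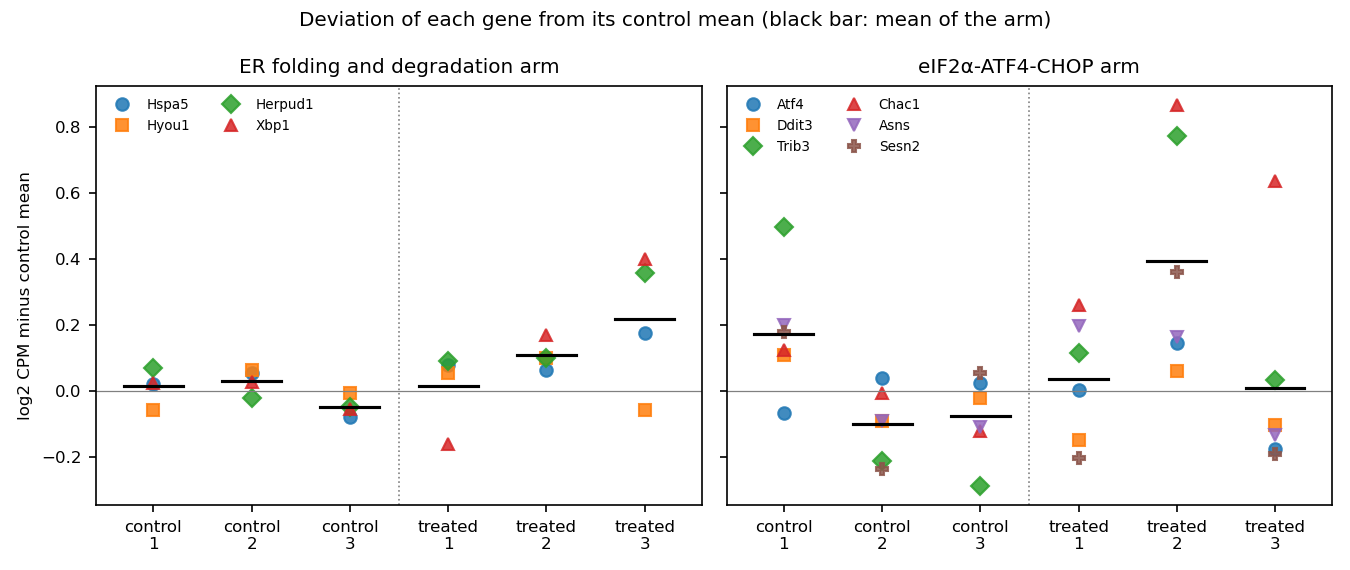
Deviation of each gene's log2 CPM from its control mean in each library, for the ER arm (left) and the eIF2α arm (right); black bars are the mean of the arm. The ER arm is highest in treated replicate 3 at 0.22 and the eIF2α arm in treated replicate 2 at 0.40, with control replicate 1 at 0.17.

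Profiles over the 6 libraries were also compared with each arm's average for genes outside the arms. The nearest of these genes were in none of the wider pathway lists described below. Those lists hold 111 genes and 11809 genes were compared, so this says little about the arms. Whether the arms' own genes lie nearer is not shown here. By root mean square difference of the control-centred log2 levels among 11809 genes at a mean of at least 5 CPM, Arl10 (0.0213), Nipbl (0.0249) and Kdm5c (0.0260) were nearest to the ER arm. Lrfn2 (0.0591), Lrwd1 (0.0731) and Taf5l (0.0735) were nearest to the eIF2α arm.

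Beyond the 10 genes, 8 lists with 111 further genes of these pathways were examined, of which 107 were tested and 0 passed over all genes with edgeR in either direction. At an unadjusted edgeR p under 0.05 there were 6 genes higher and 1 lower, where 4% and 2.67% of all genes were. DESeq2 called 2 of them, Atf3 and Slc7a11, where it called 0.569% of all genes with an adjusted p. Groups did not overlap for 15 of the 107 with all treated above, against 7.07% of all genes, and for 6 with all treated below, against 7.63%.

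Sensors and kinases of the pathways had a median log2 fold change of -0.06 over 10 genes, 2 of them positive and 8 negative, where 52.8% of all genes tested were positive, and the median was 0.0033 without treated replicate 3. Ern1, which encodes IRE1, stood at -0.05 ± 0.09, and Eif2ak3, which encodes PERK, at -0.04 ± 0.14, both named after their values were seen. The third sensor, Atf6, was at 0.16 ± 0.10 from 61.7 ± 5.92 CPM in controls and 69.1 ± 4.70 CPM after treatment. The kinase genes Eif2ak2 (PKR) and Eif2ak4 (GCN2) had all treated libraries below all controls, at -0.32 ± 0.17 and -0.27 ± 0.16. Leaving out treated replicate 3 gave -0.14 for Eif2ak2 and -0.10 for Eif2ak4.

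Regulators around ATF4 and CHOP gave one large difference. Atf3, a transcription factor induced by the integrated stress response and by nerve injury alike, had 6.65, 7.23 and 4.19 CPM in controls and 37.4, 77.4 and 61.4 CPM in treated libraries. The groups were far apart, at a log2 fold change of 3.27 ± 0.33 (edgeR adjusted p = 0.179, DESeq2 adjusted p = 4.76e-26), and between 3.01 and 3.50 with single libraries left out. The other 8 tested genes of that list ran from -0.17 to 0.96, the upper end being Nupr1, a stress-induced chromatin protein named after its value was seen, which was at -0.29 without treated replicate 3. Among them were Atf5 at 0.15 ± 0.10, or 0.08 without treated replicate 3, and Ppp1r15a, the stress-induced eIF2α phosphatase subunit, named after its value was seen, at 0.16 ± 0.11. Eif4ebp1, a translation repressor and ATF4 target, was at 0.73 ± 0.39 and at 0.17 without treated replicate 3. The list's median was 0.16, or 0.04 without treated replicate 3. Gdf15, with 4 counts summed over controls and 2 after treatment, Fgf21, with 8 and 2, and Stc2, with 11 and 12, were too scarce to be tested.

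Amino acid synthesis and transport genes driven by ATF4 had the most one-sided values of the 8 lists. Of 17 tested, 16 were positive (94.1%, against 52.8% of all genes), with a median of 0.25 that stayed between 0.22 and 0.27 when single libraries were left out, and 5 had an unadjusted edgeR p under 0.05 on the higher side (29.4%, against 4%). Slc38a2, a neutral amino acid transporter known to be induced by amino acid shortage, had 121, 133 and 119 CPM in controls and 146, 149.96 and 147 CPM in treated libraries, without overlap, at 0.25 ± 0.08 (edgeR adjusted p = 0.686). Psat1, of serine synthesis, was at 0.44 ± 0.17, from 17.5 ± 3.24 CPM in controls and 23.9 ± 2.93 CPM after treatment. Slc7a11, the cystine transporter subunit that supplies glutathione synthesis, had 0.287, 0.154 and 0 CPM in controls and 1.19, 1.64 and 3.50 CPM in treated libraries, 9 counts against 131 in all. Its log2 fold change was 3.72 ± 0.85 (edgeR adjusted p = 0.595, DESeq2 adjusted p = 0.00378) and 3.17 without treated replicate 3. The arginine transporter Slc7a3 at 1.72 ± 0.68, the serine hydroxymethyltransferase Shmt2 at 0.29 ± 0.12 and the cystathionine lyase Cth at 2.13 ± 1.08, the last with 0 to 0.541 CPM in controls and 0.453 to 1.46 CPM in treated libraries, were named after their values were seen. Asns, a gene of the same response, was at 0.08 ± 0.13 as given above.

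The tRNA synthetases, another group of ATF4 targets, lay close to 0 with a median of 0.06 and a range of -0.07 to 0.20 over 12 genes, and the median ran from -0.01 to 0.13 with single libraries left out. Mars1 was at 0.20 ± 0.10 and Tars at 0.08 ± 0.09, each with all treated libraries above all controls, and Gars at 0.08 ± 0.09 with overlap. Mars1 is the gene that the annotation calls Mars and that overlaps Ddit3 on the opposite strand.

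ER chaperones and folding enzymes had a median of -0.03 over 20 genes, 8 positive and 12 negative, and their non-overlapping members pointed in both directions. Manf, a secreted ER stress protein with neurotrophic activity, had 54.1, 50.2 and 57.8 CPM in controls and 47.2, 42.1 and 40.9 CPM in treated libraries. All treated libraries were below all controls, at -0.31 ± 0.10 (edgeR unadjusted p = 0.0137, adjusted p = 0.670), and at -0.27 without treated replicate 3. Hsp90b1, the ER form of HSP90, was also below in all treated libraries, at -0.19 ± 0.10 from 649 ± 40.4 CPM in controls and 569.99 ± 32.2 CPM after treatment. Dnajb9, a BiP cofactor and classical target of spliced XBP1, was above in all treated libraries at 0.22 ± 0.12, and at 0.10 without treated replicate 3. Hspa5 and Hsp90b1 thus stood on opposite sides of 0, at 0.11 ± 0.09 and -0.19 ± 0.10, although both windows hold an ERSE, and the difference between the genes was not tested.

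Degradation and transport genes had medians close to 0. The ER-associated degradation list had a median of 0.01 over 16 tested genes, with Ube2g2 at 0.27 ± 0.15, Herpud2 at 0.20 ± 0.14 and Os9 at 0.18 ± 0.10, and the translocon and ER-to-Golgi list had a median of 0.02 over 15 genes, with Sec24d at 0.21 ± 0.11, Spcs3 at 0.20 ± 0.12 and Ssr3 at 0.14 ± 0.09. Cell death effectors linked to CHOP had the highest median of the 8 lists, at 0.39 over 8 genes, 6 of them positive and 2 negative. The median was 0.30 without treated replicate 3 and ran from 0.26 to 0.50 with single libraries left out. Pmaip1 at 0.84 ± 0.52 and Tnfrsf10b at 0.70 ± 0.44, both named after their values were seen, were scarce. They had 52 and 53 counts summed over controls. Bcl2l11, which encodes the pro-apoptotic protein BIM, had 4.30, 8.15 and 6.08 CPM in controls and 6.75, 9.58 and 16.5 CPM in treated libraries, so the groups overlapped. Its log2 fold change of 0.80 ± 0.37 was 0.39 without treated replicate 3, and Bak1 was at 0.43 ± 0.23. The survival gene Bcl2 was at -0.27 ± 0.13, with all treated libraries below all controls, and at -0.14 without treated replicate 3. The highest Bcl2l11 and Bak1 and the lowest Bcl2 were in treated replicate 3, the library with high fat cell and macrophage markers, whose part was not tested.

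**Figure D4:**
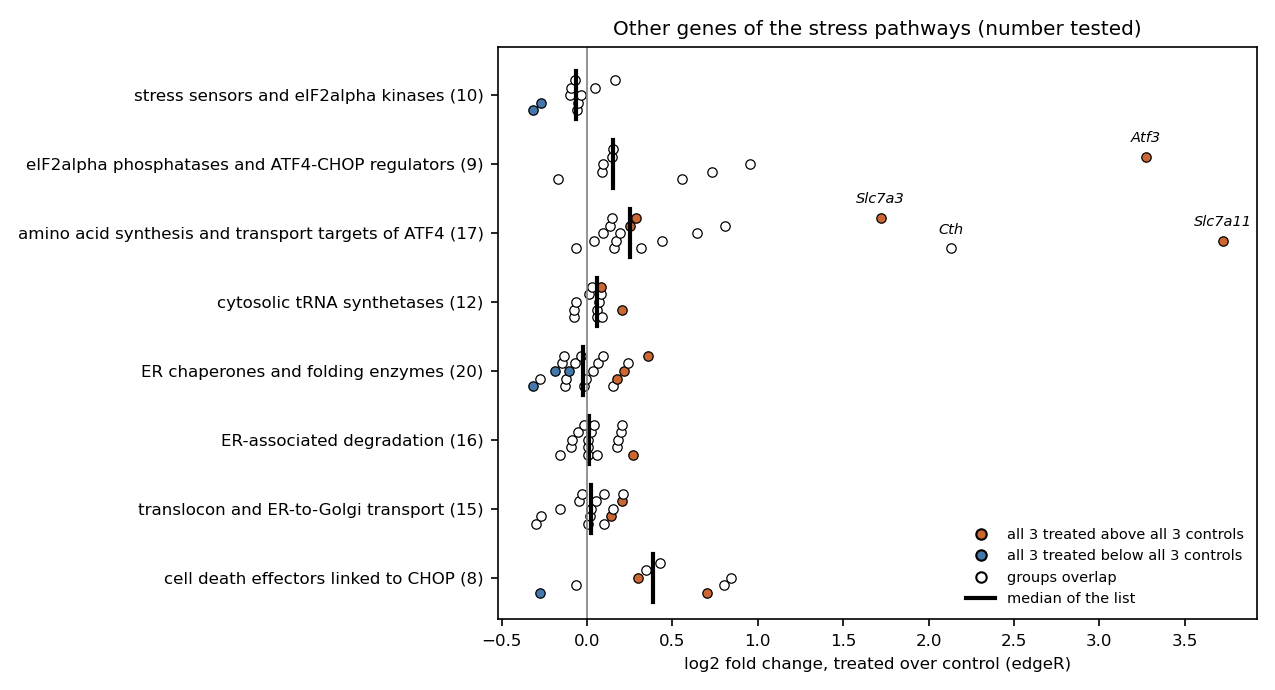
Log2 fold change of every tested gene in the 8 wider lists (number tested in brackets); filled points are genes whose groups do not overlap, and black bars are list medians. Atf3 at 3.27 and Slc7a11 at 3.72 lie far from the rest, and the ATF4 amino acid list has its median at 0.25.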

How the data were processed

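Per the labels' protocols, a strand-specific low-input kit was used on some 6 ng of RNA per library, and RNA integrity numbers lay between 6.6 and 9.1. Per the submitters' processing notes, the genome build was mm10 and the tools were STAR 2.7.7a, bcl2fastq 2.20, edgeR and DESeq2. The authors deposited raw exonic read counts per gene, 1 file per library; which program, annotation and strand setting made them is not given in the sources used here. Of 32719 genes, 32663 matched GENCODE M21 (GRCm38), the source of coordinates and exon lengths.

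Counts were fitted with edgeR 4.0.16 (R 4.3.3): filterByExpr with a minimum count of 10, trimmed mean of M values (TMM) scaling, a robust quasi-likelihood F test of treated against control, and Benjamini-Hochberg adjustment over the 16019 tested genes (threshold 0.05). The standard error (SE) is the size of the log2 fold change divided by the square root of F, and 95% intervals use it with edgeR's total degrees of freedom. CPM are counts scaled by the TMM-adjusted library size, and log2 levels of libraries use a prior count of 2. Exact permutation tests were two-sided. DESeq2 1.42.0 and limma 3.58.1 served as alternatives, with other scalings, filters, the replicate block and each library left out; summing both Ddit3 rows was chosen after seeing the data. On simulated counts with 200 of 16019 genes changed, 46% of the 2-fold and 79% of the 4-fold changes were recovered by edgeR, and 7.41% of its calls were false, against 23.9% of the calls of DESeq2. Precision is limited by 3 libraries per group and, for scarce transcripts, by counts.

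The 10 genes, the lists and the tests were chosen with earlier results of these data known. Named genes are the 10, the 3 with the smallest p in each wider list at a mean of at least 1 CPM, and the 3 nearest in profile to each arm; others are marked as chosen after their values were seen.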

Additional observations from a re-analysis of the deposited data

How the results depend on the processing

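Over 17 alternatives, 0 of the 10 genes was called in any, Chac1 and Trib3 not being tested with the filter at 5 CPM in 3 libraries, the smallest adjusted p being 0.389 for Chac1 in limma-voom with sample weights. Without treated replicate 1 an unadjusted p under 0.05 was reached by 2 of the 10 and by 1729 of all 16027 genes tested. With library size scaling it was reached by 1 of the 10 and by 1024 of 16019 genes. With limma-voom and sample weights it was reached by 1 of the 10 and by 1859 of 16019 genes. The number of genes called over the whole table was 0 with edgeR, 26 without the low-count filter, 93 with the DESeq2 Wald test, 8 with limma-voom and sample weights, 1 with the replicate block, and 0 to 9 when single libraries were left out (7 without treated replicate 1 and 9 without treated replicate 3). Same-numbered samples did not all deviate together (correlations of 0.0142, 0.564 and 0.488 across 12197 genes), so the numbers were not taken as pairs. Control replicates 2 and 3 did have the same-numbered treated library as their best partner, while control replicate 1 had treated replicate 3. Whether same-numbered samples share a batch was not tested. The replicate block left all 10 genes uncalled.

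The genes nearest to 0, Atf4, Sesn2 and Hyou1, changed sign in some settings. So did the short Ddit3 model, which was at -0.32 with 2 to 27 counts per library. Atf4, at -0.0036, was at 0.0098 with library size scaling, 0.0022 with the filter at 5 CPM, 0.095 with limma-voom and sample weights, and between -0.094 and 0.075 with single libraries left out. Sesn2, at 0.011, was at -0.0018 with upper quartile scaling, -0.0017 with the replicate block and between -0.22 and 0.11 with single libraries left out. Hyou1 ran from -0.012 to 0.077 and the short Ddit3 model from -0.76 to 0.035 when single libraries were left out; the cause was not tested. Both arm medians moved by less than the spread between replicates in all 17. The limits are 3 libraries a group, counts of 28 to 202 per library for Trib3, Chac1 and Sesn2, and 1 library that stands apart.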

Other observations

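ERSE is rare enough to follow across the whole table. Of the 37 genes with an ERSE in a RefSeq window, 19 were tested, of which 9 were positive and 10 negative on the log2 scale (median -0.0083). Besides Hspa5 and Hsp90b1 they included the lectin chaperones Calr at -0.0083 ± 0.10 and Canx at -0.13 ± 0.12, the disulfide isomerase Pdia6 at -0.02 ± 0.08, the BiP cofactor Dnajc3 at 0.15 ± 0.12 and the ubiquitin ligase Syvn1 at -0.09 ± 0.14, all named after their values were seen. The most positive was Acacb, the mitochondrial acetyl-CoA carboxylase that restrains fatty acid oxidation, at 1.08 ± 0.54, in a comparison where fat cell markers were high in treated replicate 3, whose part was not tested. Of 12 genes with an ERSE-II, 10 were tested, with 6 positive and 4 negative and a median of 0.07.

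CARE was found in 11 of 87 wider pathway genes with a window (12.6%, against 3.95% of all windows). Atf3, with 1 match, was at 3.27 and Slc7a11, with 2, at 3.72. Asns, Trib3, Chac1 and Herpud1, with 1 each, were at 0.08, 0.32, 0.62 and 0.19. Among the other wider genes with CARE, Nupr1 was at 0.96, Pycr1 at 0.64, Aars at 0.09, and Gars and Tars at 0.08. Iars, Yars and Txndc5 were each at -0.07, and Fgf21 was not tested. Genes here that the naming rule did not pick were added after their values were seen. No test was made of how these values relate to the motif.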
